A study of Mus musculus with 3 samples.

Results

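The miR-3470 and miR-3473 families are mouse miRNAs whose sequences resemble short interspersed repeats, and 8 of their members were described here: mmu-miR-3470a, mmu-miR-3470b, mmu-miR-3473a, mmu-miR-3473b, mmu-miR-3473c, mmu-miR-3473d, mmu-miR-3473e and mmu-miR-3473f, called below without the species prefix. They were chosen by name, with earlier results of these arrays known, from the 1881 miRNAs on a mouse miRNA array; 7 had spots, and miR-3470b was not analysed here on the arrays. All RNA came from serum of male C57BL/6NJcl mice aged 8 weeks, 200 µL per extract, with 1.8 ng of RNA labelled with Cy3 and 1 array for each of 3 extraction kits. The exoRNeasy midi array held RNA taken up from the water phase that formed after 700 µL of QIAzol, a phenol-based lysis reagent, had been added to the serum. The miRNeasy serum/plasma advanced array came from a column kit for blood fluids, and the mirVana PARIS array from a kit with organic extraction and a glass-fibre filter. How many mice gave serum and whether the extracts shared it are not stated in the labels. With 1 array per kit there is no replicate check and no p-value; errors below are between replicate spots of a probe on 1 array and cover neither the extraction nor the mice.

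B1 and B2 elements are the abundant short interspersed repeats of rodent genomes. B1 derives from the RNA of the signal recognition particle and B2 from a transfer RNA, and both are transcribed by RNA polymerase III. A miRNA acts through its seed, the bases near its 5′ end that pair with target messages, and miR-3470 entries carry B1 sequence while miR-3473 entries carry the head of B2. Such repeats have many copies in the genome.

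The mature sequences are shown because the members differ in strand and in how much of the repeat head they share, and the results follow in that order. Capitals mark the seed, bases 2 to 8, and the sequences are those of RefSeq on GRCm38.p6, where 7 of the 8 members had an entry.
mmu-miR-3473b: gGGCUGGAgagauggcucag
mmu-miR-3473e: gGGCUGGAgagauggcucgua
mmu-miR-3473a: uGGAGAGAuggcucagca
mmu-miR-3473f: cAAAUAGGacuggagagaug
mmu-miR-3473c: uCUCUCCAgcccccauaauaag
mmu-miR-3473d: cCACUGAGccacuuuccagcccuu
mmu-miR-3470b: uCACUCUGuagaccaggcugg

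The 7 sequences hold 6 different seeds, since miR-3473b and miR-3473e share GGCUGGA and are the same over their first 18 bases. miR-3473a lacks the first bases of miR-3473b and has a run of 16 bases in common with it, so its seed is another one. The end of miR-3473f has a run of 11 bases in common with miR-3473b, whereas its seed lies outside the shared run. miR-3473c and miR-3473d read the opposite strand, with runs of 12 and 8 bases that are complementary to miR-3473b. GC content was 65% in miR-3473b, 45% in miR-3473f and between these in the other 5.

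Each locus lay within the span of a protein-coding gene in RefSeq. miR-3473b lies at chr10:41670774-41670793 on the plus strand, inside Ccdc162, and miR-3473f at chr1:106546536-106546555 on the minus strand, inside Bcl2, which encodes an inhibitor of cell death. The others lie inside Syap1 (miR-3473a, chrX:162874920-162874937, minus strand), Rbks (miR-3473e, chr5:31667296-31667316, minus strand), Traf5 (miR-3473c, chr1:191998602-191998623, minus strand), Ddx19b (miR-3473d, chr8:111016498-111016521, minus strand) and Gramd1c (miR-3470b, chr16:44013885-44013905, plus strand). All these positions are on GRCm38.p6.

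A pair of hairpins is shown because each holds a run shared by miR-3473b and miR-3473f and also its complement. Capitals mark the run CUGGAGAGAUG and its complement.
miR-3473b hairpin: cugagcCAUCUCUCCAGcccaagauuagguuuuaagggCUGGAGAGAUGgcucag
miR-3473f hairpin: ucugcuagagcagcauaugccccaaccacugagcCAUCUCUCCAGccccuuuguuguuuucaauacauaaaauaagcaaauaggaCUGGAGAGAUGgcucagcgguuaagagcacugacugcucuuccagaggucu
The first lies at chr10:41670739-41670793 on the plus strand and the second at chr1:106546496-106546631 on the minus strand of GRCm38.p6. Of the 6 member hairpins in the RefSeq table, 4 held this run, 3 its complement and 2 both. The run was taken from the mature miR-3473b and miR-3473f, and the mature miR-3473e also holds it, so their hairpins hold it by definition. The mature miR-3473a holds 10 of its bases.

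Repeats recur in the genome, and the mature sequences were therefore counted elsewhere. In 32851 RefSeq promoter windows of 300 bases, searched on both strands for the whole mature sequence, miR-3473b was found in 32 windows, a share of 0.0974%. No other of the 1608 array miRNAs with a RefSeq sequence was found in as many. miR-3473a was found in 9 windows and miR-3470b in 10, while miR-3473c, miR-3473d, miR-3473e and miR-3473f were found in 0. Among the 1608, 1564 were found in 0 windows, 40 in 1, and 3 in at least 5. The 14 bases TGGAGAGATGGCTC, common to miR-3473a, miR-3473b and miR-3473e, were in 64 windows, a share of 0.195%, and the 11 bases CTGGAGAGATG, common to miR-3473b and miR-3473f and which overlap the first run, in 100 windows, a share of 0.304%. The counts describe these windows, not the genome, and no repeat annotation was used.

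Each array held 4415 probes for the 1881 miRNAs, and no spot was saturated. Mean signals of negative-control spots were between 4.88 and 5.26 linear units, and the scanner software's estimate of additive noise was 4.57 with exoRNeasy, 2.40 with miRNeasy advanced and 2.05 with mirVana PARIS. A probe was called detected when over 0.5 of its spots were flagged well above background, and a miRNA when at least 1 of its probes was. The lowest level of a detected probe was 21.6 with exoRNeasy, 12.2 with miRNeasy advanced and 8.81 with mirVana PARIS. The 99th percentile of negative-control spots was 12.7, 10.9 and 10.2 in the same order. Only with mirVana PARIS did the lowest detected level lie under it, so the rule was not equally strict on the arrays. All 9 miRNAs used as markers of red cells, myeloid cells and platelets, liver and muscle, such as the red cell miRNA miR-451a and the liver miRNA miR-122-5p, were detected on every array.

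Of the 7 members with spots, 3 were detected with exoRNeasy, 3 with miRNeasy advanced and 5 with mirVana PARIS. The corresponding shares of all miRNAs were 4.41%, 3.77% and 7.12%; the members were chosen with such results known, so nothing is read from the difference. miR-3473b and miR-3473f were detected on all arrays, miR-3470a, miR-3473a and miR-3473e on some, and miR-3473c and miR-3473d on none. The software's own detection flag gave 5 members on each array, where it held for 7.12%, 5.16% and 8.56% of all miRNAs in the same order. These 5 were the same members as those detected on at least 1 array. The members that read the strand of the B2 head, miR-3473a, miR-3473b, miR-3473e and miR-3473f, were each detected on at least 1 array by both of these rules. The pair that reads the complement of the B2 head was not. By the shares given above, most miRNAs were not detected either, so nothing about the strand is read from this pair. This pattern depended on the rule. With spots counted as positive and significant, miR-3473c and miR-3473d were each detected on 2 arrays, and with the 99th percentile of negative controls miR-3473d was detected with exoRNeasy. Where every probe had to pass, miR-3473a and miR-3473e were detected on 0 arrays.

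**Figure D1:**
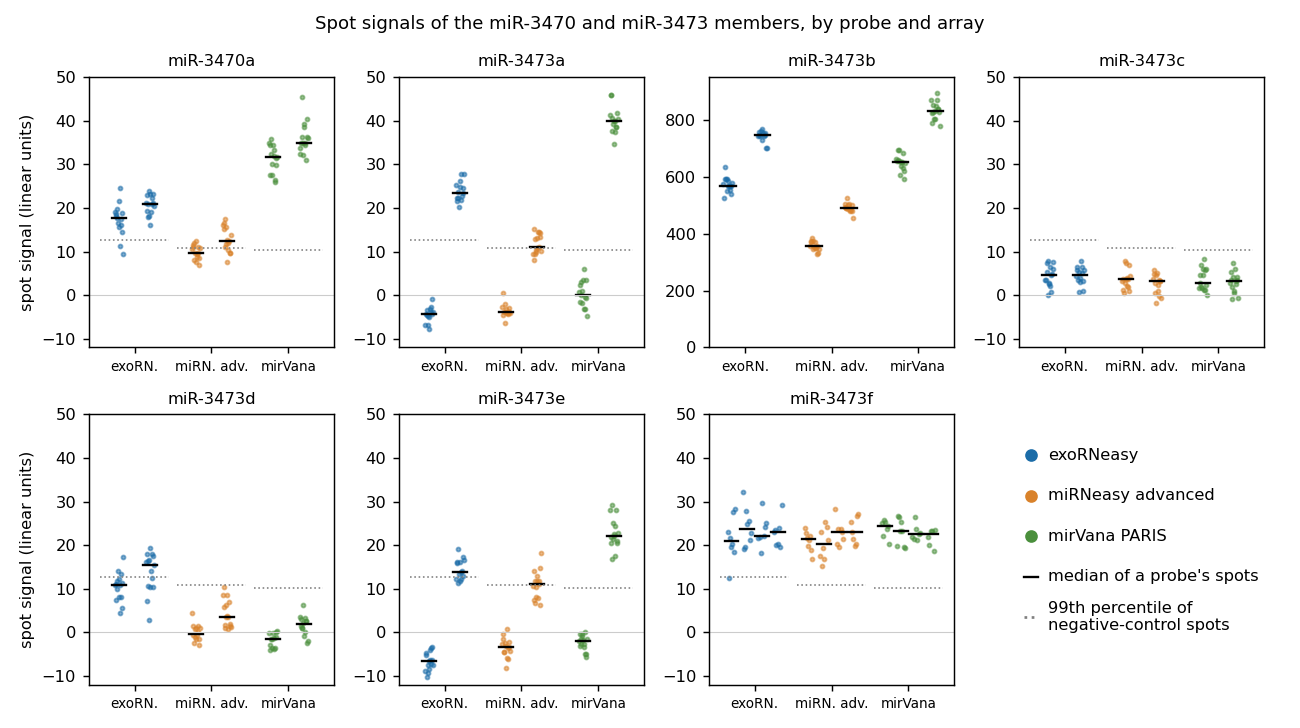
Background-subtracted spot signal in linear units (vertical axis) for each probe of 7 members on the exoRNeasy, miRNeasy advanced and mirVana PARIS arrays; points are spots, black bars the median of a probe's spots and dotted lines the 99th percentile of negative-control spots, not drawn for miR-3473b, whose axis differs. miR-3473b lies far above background everywhere, miR-3473f sits near the same signal on each array, and miR-3473a and miR-3473e each have 1 bright and 1 dim probe.

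miR-3473b was far above background on every array. Its first probe had a median spot signal of 569 (range 526 to 634) with exoRNeasy, 355 (329 to 384) with miRNeasy advanced and 653 (593 to 695) with mirVana PARIS. Its second probe had medians of 745 (701 to 767), 490.0 (453 to 526) and 831 (778 to 893) in the same order. The spots of each probe with miRNeasy advanced lay below all those on the other arrays, and those of the exoRNeasy and mirVana PARIS arrays overlapped for the first probe and did not for the second. Every spot used was well above background. The standard deviation between spots was 0.04 to 0.06 on the log2 scale.

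Without scaling, the log2 difference of the second probe was 0.60 ± 0.02 for exoRNeasy minus miRNeasy advanced, −0.17 ± 0.02 for exoRNeasy minus mirVana PARIS and −0.76 ± 0.02 for miRNeasy advanced minus mirVana PARIS (spot SE). Both probes gave nearly the same differences, those of the first being 0.68, −0.18 and −0.87. The median of all miRNAs detected on both arrays was 0.96 over 67, −0.64 over 80 and −1.63 over 71 in these comparisons. Without scaling, miR-3473b thus differed less between extracts than the median miRNA. After scaling the order turned, with a range over the 3 arrays of 1.04 log2 units for miR-3473b against a median range of 0.61. Relative to the median difference of all miRNAs detected on both arrays, miR-3473b stood at −0.36, 0.48 and 0.86 log2 units in the 3 comparisons. Scaling an array by 1 factor leaves these values as they are.

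miR-3473f, which shares only its end with miR-3473b, gave nearly equal signals from the 3 extracts. Its 4 probes had median signals of 21.0, 23.8, 22.2 and 22.9 with exoRNeasy, 21.5, 20.3, 23.0 and 23.1 with miRNeasy advanced, and 24.5, 23.3, 22.5 and 22.5 with mirVana PARIS. The spots of the arrays overlapped for each probe. The 99th percentile of negative-control spots was 12.7, 10.9 and 10.2 on these arrays, and 1 of all spots used of this miRNA, with exoRNeasy, lay below it. Without scaling, the probe used for comparison, the fourth, differed by −0.04 ± 0.10, 0.06 ± 0.09 and 0.10 ± 0.09 log2 units in the 3 comparisons, each close to or under its spot error. Over all 4 probes the unscaled differences ran between −0.19 and 0.25.

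The range of unscaled levels over the 3 arrays was 0.10 log2 units for miR-3473f, the narrowest of the 67 miRNAs detected on all of them, whose median range was 1.69. After scaling, its range was 1.90, rank 3 from the widest, against a median of 0.61, so its place among the 67 turned with the scaling. Next to it without scaling came miR-5128 at 0.56, miR-3473b at 0.76, miR-1224-5p at 0.82 and miR-199a-3p at 0.85. miR-5128 is not among the listed members and was singled out after its values were seen. Its longest unbroken run in common with miR-3473b is 9 bases, gagauggcu, fewer than the 12 used below to search for sequence neighbours. Just before that run both sequences also hold gggcugg, parted from it by a base that differs. How many other array miRNAs share a run of 9 bases was not counted, so nothing about sequence and constant signal is read from this. The mature sequence of miR-5128 is shown for the shared bases, with the seed in capitals.
mmu-miR-5128: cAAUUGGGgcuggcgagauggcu
It lies at chr2:37688212-37688234 on the minus strand of GRCm38.p6, inside Strbp. Detection of miR-3473f differed in the share of spots: 37.5%, 50%, 42.9% and 57.1% of the spots of its 4 probes were well above background with exoRNeasy, against 100% on the other arrays, so its detection there rests on the last probe alone.

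**Figure D2:**
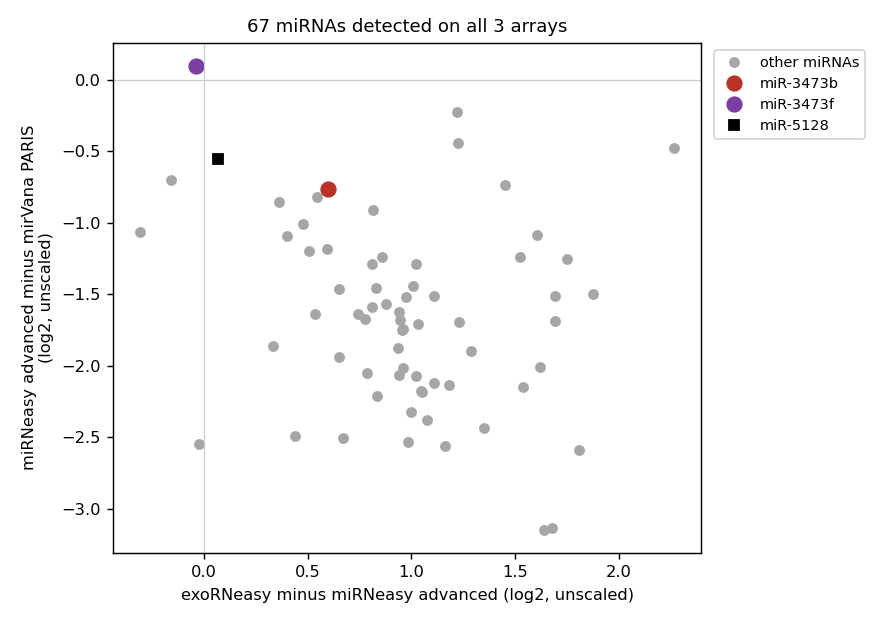
Unscaled log2 differences of the 67 miRNAs detected on all arrays, exoRNeasy minus miRNeasy advanced on the horizontal axis and miRNeasy advanced minus mirVana PARIS on the vertical axis, one point per miRNA. miR-3473f lies next to the origin, at −0.04 and 0.10, with miR-5128 and miR-3473b between it and the bulk of the miRNAs.

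miR-3473e and miR-3473a, which share runs of 18 and 16 bases with miR-3473b, each had 1 probe with signal and 1 without. The second probe of miR-3473e had median signals of 14.0 (11.3 to 19.2) with exoRNeasy, 11.2 (6.22 to 18.2) with miRNeasy advanced and 22.0 (16.9 to 29.3) with mirVana PARIS. The first probe had medians of −6.64, −3.40 and −1.89, below the negative-control mean on every array. The second probe was detected with mirVana PARIS, where all its spots were well above background, against none with exoRNeasy and 26.7% with miRNeasy advanced.

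For miR-3473a the second probe had median signals of 23.5 (20.3 to 27.9) with exoRNeasy, 11.1 (8.01 to 15.1) with miRNeasy advanced and 40.0 (34.6 to 45.8) with mirVana PARIS. These ranges do not overlap. The first probe had medians of −4.39, −3.94 and 0.11. The second probe was well above background in 57.1%, 46.7% and 100% of spots in the same order, so that the calls on the first 2 arrays lie 1 spot from the opposite call. Signal for these names thus depended on the probe, and which RNA each probe bound was not tested, since probe sequences were not used here.

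miR-3470a, the measured member of the B1 family, had the same order of arrays in both probes. Its first probe had median signals of 17.6 (9.37 to 24.6) with exoRNeasy, 9.70 (6.91 to 12.4) with miRNeasy advanced and 31.6 (25.9 to 35.9) with mirVana PARIS. Its second probe had 20.9 (16.1 to 23.9), 12.4 (7.63 to 17.5) and 34.9 (30.9 to 45.4) in the same order. The mirVana PARIS spots lay above all others in both probes, and those of the other arrays overlapped. The second probe was well above background in 26.7% of spots with exoRNeasy and 53.3% with miRNeasy advanced although its signal was higher with exoRNeasy. The noise estimates given above, 4.57 and 2.40, differ in the same direction, and their part in the calls was not tested.

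**Figure D3:**
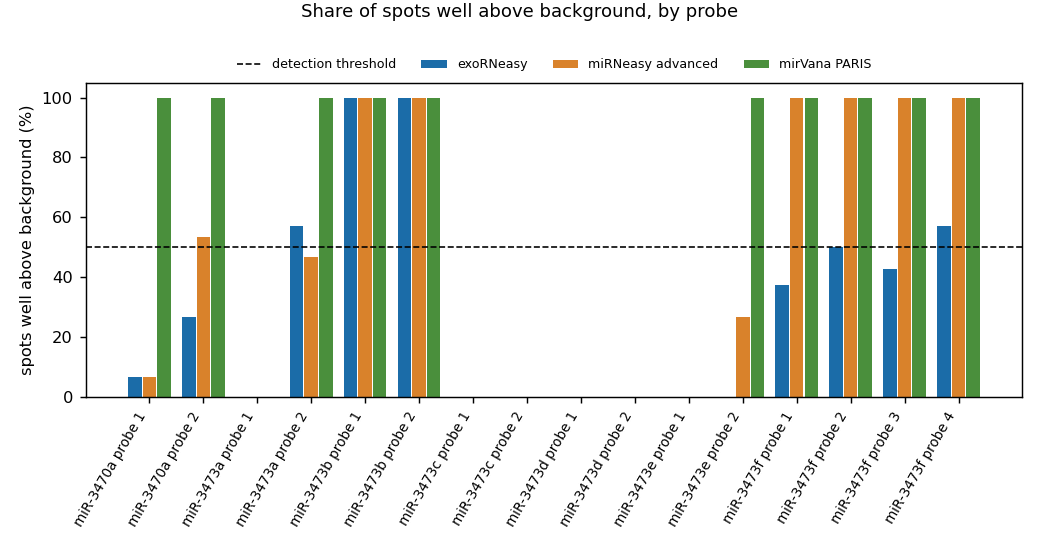
Percentage of a probe's spots flagged well above background (vertical axis) for the 16 probes of 7 members on the exoRNeasy, miRNeasy advanced and mirVana PARIS arrays; the dashed line is the detection threshold. miR-3473b stands at 100% everywhere, miR-3473c and miR-3473d at 0%, and the calls of miR-3470a, miR-3473a and miR-3473f near the threshold differ by few spots.

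Of the members of the opposite strand, miR-3473c stayed near background on every array, and miR-3473d did so with miRNeasy advanced and mirVana PARIS. miR-3473c had probe medians of 4.51 and 4.73 with exoRNeasy, 3.70 and 3.20 with miRNeasy advanced, and 2.83 and 3.35 with mirVana PARIS, under the negative-control mean in each case. None of its spots exceeded the 99th percentile of negative controls on any array. miR-3473d had medians of 10.9 and 15.5 with exoRNeasy, −0.28 and 3.62 with miRNeasy advanced, and −1.45 and 1.86 with mirVana PARIS. On the exoRNeasy array 3 of 15 spots of its first probe and 9 of 15 of its second exceeded the 99th percentile of negative controls, against 0 on the other arrays. That array also had the largest share of all probes with most spots above this level, 5.93% against 2.88% with miRNeasy advanced and 4.82% with mirVana PARIS. None of these spots was flagged well above background, so no fold is given. The second probe of miR-3473e had a similar median with exoRNeasy, 14.0, and no spot flagged there either.

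Between arrays, levels were compared after each array was scaled to its 75th percentile of the 106 probes that all arrays detected, and a difference was called at 2-fold. For exoRNeasy minus miRNeasy advanced, 2 members were detected on both, and 0 of them were called; of 67 miRNAs 2.99% were at least 2-fold higher and 1.49% at least 2-fold lower. miR-3473f stood at −0.87 ± 0.10, rank 3 from the lowest, and miR-3473b at −0.24 ± 0.02. For exoRNeasy minus mirVana PARIS, 1 of 3 members was called higher, beside 25% of 80 miRNAs, and 0 lower, beside 2.5%. This was miR-3473f at 1.03 ± 0.09, against 0.80 ± 0.02 for miR-3473b and 0.22 ± 0.05 for miR-3473a. The call of miR-3473f was lost in 11 of 13 alternatives, among them outlier spots kept (0.96) and the median of spots (0.99), and 2 of its 4 probes were under 2-fold, at 0.78 and 0.98. For miRNeasy advanced minus mirVana PARIS, 2 of 3 members were called higher, beside 14.1% of 71 miRNAs, and 0 lower, beside 2.82%. miR-3473f had a difference of 1.90 ± 0.09, rank 2 from the highest, miR-3473b of 1.04 ± 0.02, and miR-3470a of 0.28 ± 0.09. The value of miR-3473b is that of its second probe, and its first probe was under 2-fold, at 0.94. The call was lost in 4 of 13 alternatives for miR-3473f and in 8 of 13 for miR-3473b.

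The directions depended on the scaling. The scaling moved all differences by −0.83, 0.97 and 1.80 log2 units in the 3 comparisons. Without it 0 members were called higher in any comparison, beside 43.3%, 6.25% and 0% of all miRNAs. For exoRNeasy minus miRNeasy advanced and exoRNeasy minus mirVana PARIS, 0 members were then called lower, beside 0% and 27.5%. For miRNeasy advanced minus mirVana PARIS, 1 was called lower, miR-3470a at −1.53 ± 0.09, beside 80.3% of 71 miRNAs. Relative to the median of all miRNAs, miR-3473f stood at −1.0, 0.70 and 1.72 log2 units. Of the 13 alternatives, 5 scale each array by 1 factor and cannot move these values; in the other 8 the signs were kept, with ranges of −1.19 to −0.48, 0.35 to 0.70 and 0.90 to 1.72. In these 8, miR-3473b stayed above the median in both comparisons with mirVana PARIS, at the lowest 0.13 (without background correction) and 0.20 (with the model-based normexp correction). For exoRNeasy minus miRNeasy advanced its sign was not kept: −0.36 became −0.06 without background correction, 0 with quantile normalization and 0.0047 with normexp.

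**Figure D4:**
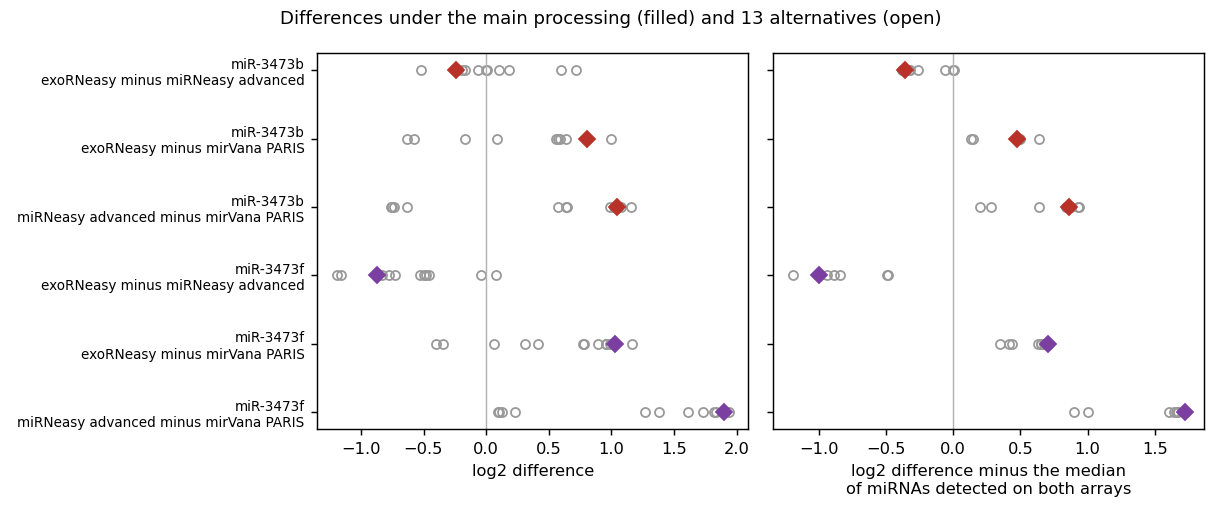
Log2 differences of miR-3473b and miR-3473f between arrays (left) and the same minus the median of all miRNAs detected on both arrays (right); filled diamonds are the main processing and open circles 13 alternatives. The raw differences lie on both sides of 0 in 5 of the 6 comparisons drawn, the exception being miR-3473f for miRNeasy advanced minus mirVana PARIS (0.10 to 1.94); relative to the median, miR-3473f keeps its sign.

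Where a member was detected on 1 array of a pair, a bound was set against the lowest detected level on the dim array or the member's own level there, whichever was higher. After scaling, the bound for miR-3473a was 1.1-fold, higher with exoRNeasy than with miRNeasy advanced. In log2 units this was 0.13, beside a spot SE of 0.08 for the difference. Both calls behind it lie 1 spot from the opposite call, so the bound is not a firm floor. For miR-3470a the scaled difference of exoRNeasy minus miRNeasy advanced, −0.11 ± 0.10, was about as large as its spot error, and without scaling the direction turned, to 0.72 ± 0.10. In the remaining pairs the scaled bound was under 1. On unscaled signals, the mirVana PARIS array was the brighter one by at least 3.29-fold for miR-3473a and 1.85-fold for miR-3473e against the miRNeasy advanced array, and by at least 1.66-fold for miR-3470a and 1.05-fold for miR-3473e against the exoRNeasy array. The exoRNeasy array then exceeded the miRNeasy advanced array by at least 1.96-fold for miR-3473a.

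The profiles most like those of the members were found by Euclidean distance between scaled log2 levels, each relative to its own mean over the 3 arrays, among the 67 miRNAs detected on all of them. Nearest to miR-3473b were miR-1224-5p (0.08), miR-126a-3p, a platelet and endothelial miRNA (0.16), miR-199a-3p (0.24), miR-8110 (0.27) and let-7g-5p (0.34), against a median distance of 0.77. Nearest to miR-3473f were miR-5128 (0.50), miR-3473b (0.63), miR-1224-5p (0.66), miR-199a-3p (0.68) and miR-5126 (0.71), against a median of 1.3. Seen from miR-3473b, miR-3473f at the same distance of 0.63 was only rank 21, not far under the median of 0.77. With 3 arrays such profiles have few degrees of freedom, and the distances are a description.

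The other listed miRNAs were mostly not detected, as were most miRNAs on the arrays. Of all 1881 miRNAs, 4.41% were detected with exoRNeasy, 3.77% with miRNeasy advanced and 7.12% with mirVana PARIS, so nothing is read from these small lists. The 4 array miRNAs with the seed of a member, miR-882, miR-7649-3p, miR-674-5p and miR-1947-3p, were detected on no array; they are named after their values were seen, as is the next. Among the 1608 array miRNAs with a RefSeq sequence, no miRNA outside the families had 12 or more bases in a row in common with a member. The 1 with such a run complementary to a member, miR-7667-5p, was not detected either. These searches and that for seeds left out array miRNAs without a RefSeq sequence, and the member miR-3470a, which lacks one. Of 19 miRNAs listed as overlapping older transposable elements (L2, MIR or mariner), 0 were detected with exoRNeasy or miRNeasy advanced. With mirVana PARIS miR-345-5p and miR-378a-3p were called detected, at unscaled levels of 9.28 and 10.8 linear units. The 99th percentile of negative-control spots there was 10.2, above the first level and just under the second. The level of miR-345-5p was higher with exoRNeasy, at 11.96, where the lowest level of a detected probe was 21.6. Its call therefore does not show that its signal was highest with mirVana PARIS. For miR-378a-3p the levels were 1.49 with exoRNeasy and 1.22 with miRNeasy advanced.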

How the data were processed

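MicroRNA was measured on 3 one-colour arrays, 1 per kit. Spot intensity, linear and in scanner units, was deposited for each array; the authors made it with Agilent Feature Extraction 11.5.1.1 with background subtraction and spatial detrending, per the file headers; no normalisation between arrays is recorded there. The deposited value table holds the same intensity values to within 0.50% per spot, matched by spot number, with column medians of −2.77 (exoRNeasy), −1.51 (miRNeasy advanced) and −1.44 (mirVana PARIS); it is linear, not centred and holds single-array levels without direction.

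Spots flagged as outliers were left out (1427 to 1515 of 56430 per array). Values under 1 were set to 1, log2 values of a probe's spots were averaged, and each array's 75th percentile over 106 probes was subtracted, at 7.05, 6.21 and 8.02 in the same order. Each miRNA was represented by the probe with detection on the most arrays and, among ties, the highest mean. Members, lists and naming rules (all 8 members, their sequence neighbours, listed miRNAs that were detected, and the 5 nearest profiles) were chosen with earlier results of these data known. Coordinates are RefSeq's on GRCm38.p6; the array design names an older build. Python 3.11.15 and limma 3.58.1 were used. The probe averaging was tested on simulated data for the brightest probes of 1 array, which covered neither the percentile scaling nor the detection rule. Alternatives covered detection flags, scaling, background correction and probe summary. The number of arrays limits the precision.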

Additional observations from a re-analysis of the deposited data

How the results depend on the processing

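Leaving out a replicate was not possible with 1 array per kit, and the causes of the changes below were not tested. Of the values recomputed, 122 stayed within the spread of spots or within 1.5 times of a count, and the rest moved further. Among the 104 recomputed log2 differences of members, 25 changed sign, 6 of them where the main value was at least 2-fold. The others were differences under 2-fold of miR-3470a, miR-3473a, miR-3473b and miR-3473f. The log2 difference of miR-3473b for miRNeasy advanced minus mirVana PARIS became −0.76 without scaling, −0.73 with the 75th percentile over all probes, −0.63 with labelling spike-ins and −0.75 with hybridisation spike-ins. That of miR-3473f for exoRNeasy minus mirVana PARIS became −0.40 with the percentile over all probes and −0.35 with hybridisation spike-ins. Members at least 2-fold higher for exoRNeasy minus mirVana PARIS numbered 0 in place of 1 without scaling, with the percentile over all probes, median, quantile or either spike-in scaling, with normexp or no background correction, with the mean of probes, with outlier spots kept and with the median of spots. For miRNeasy advanced minus mirVana PARIS they numbered 0 in place of 2 without scaling, with the percentile over all probes and with either spike-in, and 1 with quantile normalization, normexp, no background correction or the mean of probes. Members at least 2-fold lower numbered 1 in place of 0 for exoRNeasy minus miRNeasy advanced with median and quantile scaling, for exoRNeasy minus mirVana PARIS with the percentile over all probes and hybridisation spike-ins, and for miRNeasy advanced minus mirVana PARIS without scaling, with the percentile over all probes and with either spike-in. Members detected with exoRNeasy, 3 in the main processing, numbered 5 by the software's flag, 6 by positive and significant spots, 1 where every spot or every probe had to pass, and 6 with the 99th percentile of negative controls, a setting chosen after seeing the data. With miRNeasy advanced they numbered 5, 7 and 5 in place of 3 by the software's flag, positive and significant spots, and that percentile, and with mirVana PARIS 3 in place of 5 where every probe had to pass. Signals of miR-3470a, miR-3473a, miR-3473e and miR-3473f lie close to background, which limits their calls.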

Other observations

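miR-3473g carries a name of this family but was not among the members, and it was singled out after its values were seen. Its probes had median signals of 16.8 and 16.2 with exoRNeasy, 11 and 12 with miRNeasy advanced, and 34.0 and 33.4 with mirVana PARIS. By the share of spots well above background it was detected with mirVana PARIS alone, and by the software's own flag on all 3 arrays. With exoRNeasy 13 of 15 spots of each probe exceeded the 99th percentile of negative controls, and with miRNeasy advanced 8 of 15. The longest run of miR-3473g in common with miR-3473b is 6 bases, ggcugg.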
